A study of Saccharomyces cerevisiae with 18 samples.

Results

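Large-subunit ribosome assembly genes encode the factors that build the 60S subunit of the yeast ribosome, and 57 of them were followed across 8 genotype groups on 18 arrays. The members were the probe sets annotated to one gene symbol from a list of 60S assembly factors, out of 5656 genes that the array measured with a probe set of their own. All 57 genes had such a probe set, 59 probe sets in all, and all 59 passed the filter on low signals. The genes were picked for their function in 60S assembly, with earlier results of these data known. NOG2 and SSF2 each had a second probe set, which is described beside the first.

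The large subunit starts in the nucleolus, where RNA polymerase I makes 1 long precursor RNA that is cut at its internal spacers, ITS1 and ITS2, into the mature 25S and 5.8S RNAs. Early factors fold and modify the RNA, DEAD-box RNA helicases and GTPases drive the remodelling steps, and a last set carries the particle through the nuclear pore and strips it of its factors in the cytoplasm. In budding yeast most of these genes belong to the ribosome biogenesis regulon, whose promoters often share sequence elements called PAC and RRPE and whose transcription follows nutrient supply and growth. Rpd3, a histone deacetylase, is known to be brought to many of these promoters when growth slows.

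Total RNA of Saccharomyces cerevisiae was measured on one-colour Affymetrix YG_S98 arrays, and a signal is a probe set's brightness in arbitrary units. Wild type had 3 arrays. The RPD3 deletion (n = 2) lacked the deacetylase. H3delta(1-28) (n = 2) lacked the first 28 residues of histone H3 and is called the H3 tail deletion, and H4delta(2-26) (n = 2) lacked residues 2 to 26 of histone H4 and is called the H4 tail deletion. In H3(K4,9,14,18,23,27Q) (n = 3) and H4(K5,8,12,16Q) (n = 2), the named tail lysines were replaced by glutamine, which lacks the positive charge of lysine and is widely used to stand in for acetyl-lysine. These are called the H3 and the H4 glutamine mutant. The H3 double mutant (n = 2) joined the RPD3 deletion to H3delta(1-28), and the H4 double mutant (n = 2) joined it to H4(K5,8,12,16Q). Each group was 1 strain. The sources used here do not say how the cells were grown, how the histone genes were replaced or whether each array stands for its own culture. The spread between arrays of a group, on which all p-values rest, may thus be technical.

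RPD3 signal lay between 9.40 and 80.7 on the 6 arrays of strains labelled as lacking the gene, all under the floor of 140.2 used here as the lower limit of a signal, and between 494 and 1001 on the other 12. The arrays were sampled on 8 days, called A to H. Wild type came from days B, C and H, the H3 glutamine mutant from F and G, and both arrays of the H4 glutamine mutant and both of its double mutant from day E. The headers of 3 arrays name another strain than the label, and these are the second arrays of both tail deletions and of the H3 double mutant. Over all probe sets these arrays correlated with the other array of their labelled group at 0.977, 0.982 and 0.958, against 0.961, 0.955 and 0.956 with the most similar other group. The ratio of the 3′ to the 5′ actin probe sets, a sign of RNA integrity, ran from 1.19 to 1.85 and was highest in the first H3 tail deletion array. The number of arrays limits the precision of every value below.

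The wild-type arrays were themselves unequal in these genes. The second wild-type array was the highest of the 3 for 57 of 57 members, against 30.4% of all probe sets. The third was the lowest for 37 members and the first for 20. Measured as the median over members of the log2 signal minus the wild-type mean, the 3 arrays stood at -0.17, 0.44 and -0.29. The median SD of a member among the wild-type arrays was 0.43 on the log2 scale, against 0.10 to 0.23 within the mutant groups. All 7 comparisons against wild type use the same 3 arrays, so this spread is common to them.

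Against that spread, the members' medians on single mutant arrays fell into steps. They stood at -0.30 and -0.23 in the RPD3 deletion, close to the last wild-type array. The H3 tail deletion stood at -0.70 and -0.51, the H3 double mutant at -0.61 and -0.76, and the H4 double mutant at -0.75 and -0.62. The H3 glutamine mutant stood at -0.90, -0.92 and -0.93, and the H4 tail deletion at -1.33 and -1.38. The H4 glutamine mutant stood at -1.49 and -1.21. On 5 arrays, both of the H4 tail deletion, the last 2 of the H3 glutamine mutant and the first of the H4 glutamine mutant, every one of the 57 members was below all 3 wild-type arrays, beside 30.6% to 38.5% of all probe sets. In each RPD3 deletion array that held for 24 members, beside 20.4% and 23.3%.

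**Figure D1:**
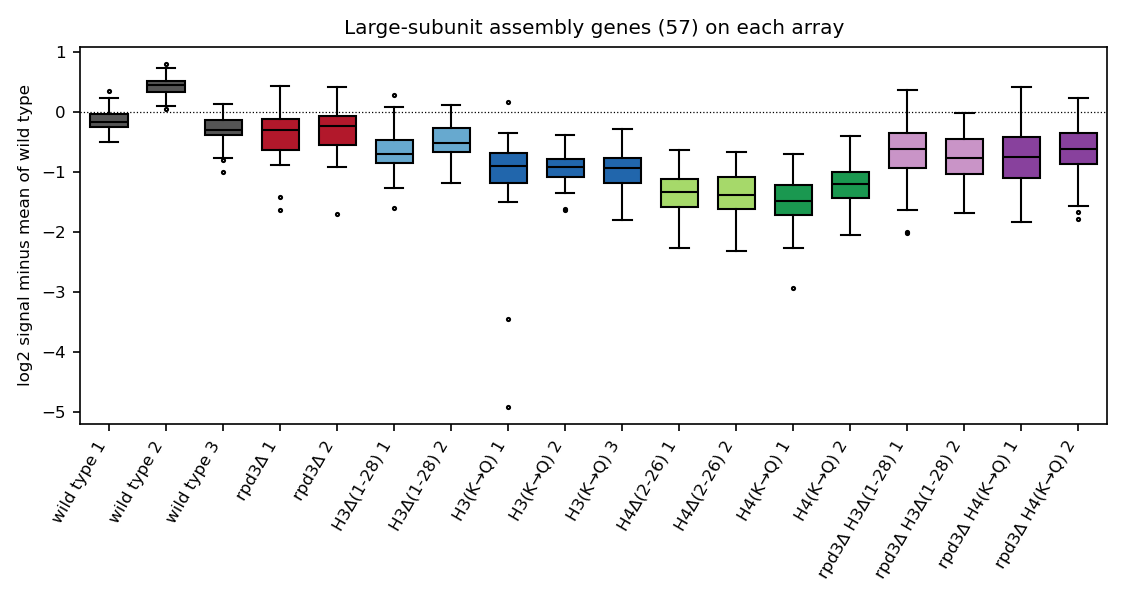
Log2 signal of the 57 members on each of the 18 arrays (x axis), minus each gene's mean over the 3 wild-type arrays (y axis); boxes are quartiles with the median, whiskers reach 1.5 times the box length and points lie beyond. The medians run from 0.44 on the second wild-type array to -1.49 on the first array of the H4 glutamine mutant.

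Transcripts for large-subunit assembly were lower than in wild type throughout both H4 mutants and the H3 glutamine mutant, and in part of the list elsewhere. A member is said to have fallen, or to be called lower, where limma's Benjamini-Hochberg adjusted p over all 7851 probe sets tested was under 0.05. In the H4 tail deletion 55 of 57 members fell, with a median log2 change of -1.36 (interquartile range -1.59 to -1.13), and 15.1% of all probe sets tested were called lower there. In the H4 glutamine mutant 53 fell, with a median of -1.34 (-1.50 to -1.12), beside 16.5% of all probe sets. In the H3 glutamine mutant 53 fell, with a median of -0.95 (-1.20 to -0.74), beside 13.7%. The median over all probe sets tested was between -0.08 and 0.03 in each of the 7 comparisons. Signals were scaled to a common mean per array, so each change is relative to the rest of the measured RNA. In bulk RNA, fewer cells that transcribe a gene and less RNA per cell cannot be told apart.

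The other comparisons against wild type reached fewer members. In the H3 tail deletion 12 fell (median -0.55), beside 2.98% of all probe sets, and 29 were lower at an unadjusted p under 0.05, beside 8.76%. In the RPD3 deletion 6 fell (median -0.33), beside 4.13%, and 10 were lower at an unadjusted p under 0.05, beside 9.6%. In the H3 double mutant 25 fell (median -0.74), beside 8.13%, and in the H4 double mutant 27 (median -0.71), beside 12.9%. At an unadjusted p under 0.05 these counts were 40, beside 14.1% of all probe sets, and 37, beside 19.8%. No member was called higher in any of the 7, nor was any higher at an unadjusted p under 0.05, where 14% to 21.3% of all probe sets were. Of all probe sets, 11.2% were called higher in the RPD3 deletion, 10.7% in the H3 tail deletion, 11.8% in the H3 glutamine mutant, 12.3% in the H4 tail deletion, 8.69% in the H4 glutamine mutant, 15.4% in the H3 double mutant and 11.6% in the H4 double mutant. Of the 57, 49 fell in both H4 mutants and the H3 glutamine mutant, 56 fell in at least 1 of the 7 comparisons, and 0 fell in all 7. The matching shares of all probe sets were not counted. The 7 comparisons use the same wild-type arrays, so their calls are not independent. YTM1 was the member called in none, and its case is given below. The narrower counts moved with single arrays. Without the second wild-type array, 1 member was called in the H3 tail deletion, 1 in the RPD3 deletion, 14 in the H3 double mutant and 13 in the H4 double mutant, and 31 in the H3 glutamine mutant. Without the third, 19 were called in the H3 tail deletion and 39 in the H3 double mutant. Without one of its own arrays, the H3 tail deletion had 2 or 3 called, the RPD3 deletion 2 and the H4 double mutant 6 or 13, and the H3 double mutant had 10 without its second. Without the first H3 glutamine array the RPD3 deletion had 3. Leaving out 1 array also moved the number of all probe sets called in either direction. It ran from 520 to 1245 in the RPD3 deletion (1207 as reported) and from 431 to 1265 in the H3 tail deletion (1071). The ranges were 1340 to 2320 in the H3 glutamine mutant (2004), 1333 to 2054 in the H3 double mutant (1849) and 724 to 2276 in the H4 double mutant (1925). Without the 3 arrays whose headers name another strain, 2 members were called in the H3 tail deletion, 3 in the RPD3 deletion and 9 in the H3 double mutant, and with the actin ratio as a covariate the counts were 5, 1 and 14.

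The arrays of mutant and wild type did not overlap, with the mutant lower, for 57 members in the H4 tail deletion, where 26.1% of all probe sets were so placed. The number was 55 in each of the glutamine mutants, beside 29% (H4) and 20.5% (H3) of all probe sets. It was 44 in the H4 double mutant (25.2%), 36 in the H3 double mutant (16.4%), 32 in the H3 tail deletion (12.1%) and 17 in the RPD3 deletion (13.6%).

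Sampling time was partly bound up with genotype, and values within it are single arrays or pairs with no test. On day B, against the wild-type array of that day, the median member changed by -0.18 in the RPD3 deletion, -0.36 in the H3 tail deletion and -0.61 in the H3 double mutant. Members below that wild-type array numbered 36, 48 and 52, beside 47.2%, 45.3% and 50.9% of all probe sets. Against the only wild-type array of the later sampling period (days E to H), the third, the median was -1.01 in the H4 glutamine mutant, with 57 members lower, -0.66 in the H3 glutamine mutant, with 56 lower, and -0.35 in the H4 double mutant, with 49 lower, beside 48.7%, 44.8% and 43.0% of all probe sets. Against the wild-type arrays of the earlier period (days A to D), the H4 tail deletion stood at -1.50 with 57 lower, beside 54.7% of all probe sets. With the period as a block, 30 members were called in the H4 glutamine mutant, 5 in the H3 glutamine mutant, 3 in the H4 double mutant and 56 in the H4 tail deletion. With the chip lot as a block, these counts were 3, 1, 1 and 41. Fitted with only the arrays of the groups compared, which leaves 3 or 4 residual degrees of freedom, 0, 18, 2 and 5 were called. In the same order, all probe sets called in either direction numbered 1974, 2004, 1925 and 2145 as reported. Over the alternatives that did not leave out single arrays, these numbers went down to 0, 418, 159 and 217.

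**Figure D2:**
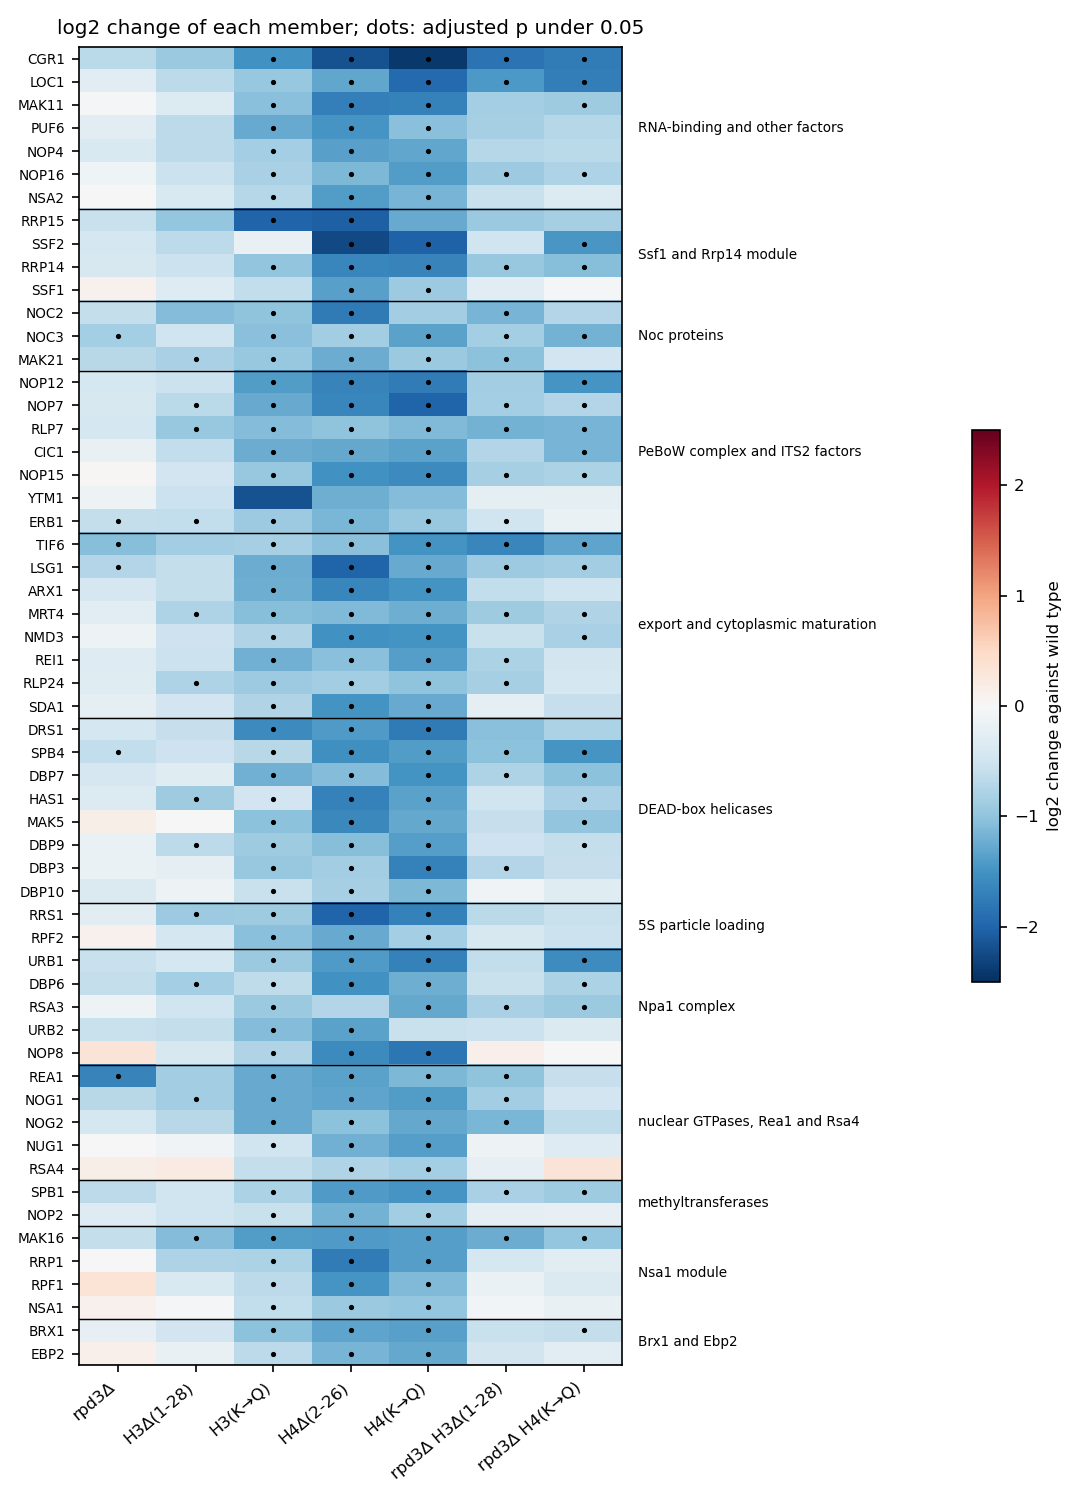
Log2 change against wild type of each of the 57 members (rows, grouped by role) in the 7 mutant groups (columns), from blue (lower) to red (higher); a dot marks an adjusted p under 0.05. Dots number 55 in the H4 tail deletion column, 53 in each glutamine mutant column and 6 in the RPD3 deletion column.

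The earliest steps are handled by the Npa1 complex, made up of URB1 (Npa1), URB2, NOP8, RSA3 and the helicase DBP6, which joins the precursor RNA before the 2 subunits part. Of its 5 members, 5 fell in the H3 glutamine mutant and 4 in each H4 mutant. URB1, its scaffold, gave signals of 2309.5, 2599.7 and 1698 in wild type, 1364 and 1587 in the RPD3 deletion strain, 1306 and 1949.6 in the H3 tail deletion strain and 1159 and 1720.2 in the H3 double mutant. Its signals were 1198, 1261 and 973 in the H3 glutamine mutant, 781 and 850.1 in the H4 tail deletion, 567 and 792 in the H4 glutamine mutant and 606 and 888 in the H4 double mutant. These 4 groups and the RPD3 deletion lay wholly below wild type, and the H3 tail deletion and its double mutant overlapped it. URB1 changed by -1.41 ± 0.27 in the H4 tail deletion (limma adjusted p = 0.0017), by -1.69 ± 0.27 in the H4 glutamine mutant (adjusted p = 0.00083) and by -1.56 ± 0.27 in the H4 double mutant (adjusted p = 0.00139), on the log2 scale with standard errors. Between the latter 2 groups URB1 differed by 0.13 ± 0.29 (adjusted p = 0.907). RSA3 was not called in the H4 tail deletion (-0.74, adjusted p = 0.0578), and URB2 not in the H4 glutamine mutant (-0.56, adjusted p = 0.19). DBP6 was the complex's only member called in the H3 tail deletion (-0.84, adjusted p = 0.0175).

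DEAD-box helicases unwind short RNA duplexes and let the precursor refold. All 8 of the list, DBP3, DBP7, DBP9, DBP10, DRS1, MAK5, SPB4 and HAS1, fell in both H4 mutants and in the H3 glutamine mutant, with group medians of -1.25 (H4 tail deletion), -1.38 (H4 glutamine mutant) and -0.92 (H3 glutamine mutant). DRS1, which acts on ITS2 processing, gave 2705, 2878 and 1217 in wild type, 982 and 643 in the H4 tail deletion, 497 and 774 in the H4 glutamine mutant and 815, 692 and 611 in the H3 glutamine mutant. It gave 1243 and 1934 in the RPD3 deletion strain, 1153 and 1758 in the H3 tail deletion strain, 849.8 and 1239.8 in the H3 double mutant and 1259.9 and 1200.1 in the H4 double mutant. The first 3 of these mutant groups lay below every wild-type array, while the lowest wild-type array made the other 4 overlap. The log2 change of DRS1 was -1.77 ± 0.37 in the H4 glutamine mutant (adjusted p = 0.00372) and -1.59 ± 0.33 in the H3 glutamine mutant (adjusted p = 0.00378). HAS1, whose wild-type signals of 1802, 1845 and 1718 were close together, stood at 529 and 579.8 in the H4 tail deletion, a 3.23-fold fall (log2 -1.69 ± 0.18, adjusted p = 3.82e-05). SPB4 fell in 6 of the 7 comparisons, including the RPD3 deletion (-0.62, adjusted p = 0.0474) and the H4 double mutant (-1.47, adjusted p = 0.00032). MAK5 fell by 1.62 in the H4 tail deletion (adjusted p = 0.00334), while its value in the H3 tail deletion was 0.01.

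The PeBoW complex, NOP7 with ERB1 and YTM1, is needed to trim the spacers around 5.8S RNA, and NOP15, CIC1, RLP7 and NOP12 bind at or near ITS2. Of these 7, 6 fell in each H4 mutant and in the H3 glutamine mutant, YTM1 being the exception each time. NOP7 signal was 656, 985 and 764 in wild type, 517 and 687 in the RPD3 deletion strain, 492 and 496 in the H3 tail deletion strain and 432 and 450.2 in the H3 double mutant. It was 348, 317 and 330.2 in the H3 glutamine mutant, 243 and 264 in the H4 tail deletion, 206 and 190.4 in the H4 glutamine mutant and 468 and 482 in the H4 double mutant. Every mutant group but the RPD3 deletion was below wild type on all its arrays, and the H4 glutamine mutant was lowest. There NOP7 was 3.99-fold below wild type (log2 -1.997 ± 0.20, adjusted p = 5.06e-05).

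RLP7, a relative of ribosomal protein L7 that sits on the precursor near ITS2, gave 2552, 4028 and 2712 in wild type, 2644 and 1892 in the RPD3 deletion strain and 1829 and 1335 in the H3 tail deletion strain. In the other groups it gave 1196, 1427 and 1705 (H3 glutamine mutant), 1335 and 1693 (H4 tail deletion), 1384 and 1435 (H4 glutamine mutant), 1724 and 1031 (H3 double mutant) and 1250.5 and 1450.2 (H4 double mutant). RLP7 was called lower in every group but the RPD3 deletion, at log2 changes from -1.19 to -0.96. The H4 glutamine mutant and its double mutant differed in RLP7 by -0.07 ± 0.29 (adjusted p = 0.986). NOP12, which binds near 5.8S RNA, came close to the floor, with 543, 824 and 236 in wild type, 348 and 347 in the RPD3 deletion strain, 236 and 446 in the H3 tail deletion strain and 225 and 296 in the H3 double mutant. Its signals were 175, 189 and 178 in the H3 glutamine mutant, 110.5 and 157 in the H4 tail deletion, 105 and 143 in the H4 glutamine mutant and 133 and 208 in the H4 double mutant. The first array of the H4 tail deletion, of the H4 glutamine mutant and of the H4 double mutant lay under the floor of 140.2, which shortens the NOP12 changes of -1.67, -1.74 and -1.47 in these groups (adjusted p = 0.00681, 0.0062 and 0.0162).

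YTM1 was the member called in none of the 7 comparisons, and its values turn on 1 array. Its signal was 3476, 5968 and 3658 in wild type, 3775 and 3968 in the RPD3 deletion strain, 2801 and 3037 in the H3 tail deletion strain and 4157 and 3106 in the H3 double mutant. It was 1619 and 2019 in the H4 tail deletion, 1794 and 2208 in the H4 glutamine mutant, 3844 and 3405 in the H4 double mutant and 111, 2295 and 2573 in the H3 glutamine mutant. The first H3 glutamine array was far below the other 2. The fit gave YTM1 a standard error of 0.86 in every change against wild type but that of the H3 glutamine mutant, where it was 0.76. On that array 61 probe sets were at least 4-fold below the other arrays of the group, and YTM1 and RRP15 were the members among them. The other arrays in groups of 3 had 0 to 26 such probe sets. Arrays in groups of 2, each set against only 1 other array, had 1 to 58. The first H3 glutamine array was then left out, a step chosen after its values were seen. In that fit YTM1 was called lower in the H3 glutamine mutant at -0.80 (limma adjusted p = 0.0282), in the H4 tail deletion at -1.23 (adjusted p = 0.0019) and in the H4 glutamine mutant at -1.09 (adjusted p = 0.0046).

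The Nsa1 module, NSA1, RPF1, MAK16 and RRP1, joins on the outer face of the particle and leaves before export. All 4 fell in both H4 mutants and the H3 glutamine mutant. MAK16 gave 964, 1495 and 685 in wild type, 689.9 and 632 in the RPD3 deletion strain, 435 and 504 in the H3 tail deletion strain and 409 and 439.6 in the H3 double mutant. It gave 358, 433 and 356 in the H3 glutamine mutant, 437 and 322 in the H4 tail deletion, 345 and 431 in the H4 glutamine mutant and 483 and 534 in the H4 double mutant. All these arrays lay below wild type except the first of the RPD3 deletion, which was just above the lowest wild-type array. MAK16 had the largest called fall of the list in the H3 tail deletion, -1.09 ± 0.28 (adjusted p = 0.0183), and it changed by -1.37 to -1.41 in the H4 mutants and the H3 glutamine mutant. The other 3 genes of the module were not called in the H3 tail deletion or in either double mutant, where NSA1 stood at -0.06, -0.06 (H3) and -0.19 (H4).

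SSF1 and SSF2 are near-identical genes for a factor that acts with RRP14 and RRP15 in the folding of the precursor. All 4 fell in the H4 tail deletion, with a median of -1.83, and 3 fell in the H4 glutamine mutant. SSF2 signal was 694, 801 and 548 in wild type, 399 and 624 in the RPD3 deletion strain, 281 and 649.6 in the H3 tail deletion strain and 384 and 586 in the H3 double mutant. It was 752, 516 and 538 in the H3 glutamine mutant, 84.6 and 115 in the H4 tail deletion, 140.4 and 197 in the H4 glutamine mutant and 265 and 226 in the H4 double mutant. The 3 groups with a mutant H4 were all below wild type, and the 4 without one overlapped it. Both H4 tail deletion arrays were under the floor, so that SSF2 was at least 4.8-fold lower there (adjusted p = 0.000434), and it fell by 2.02 in the H4 glutamine mutant (adjusted p = 0.00133). The H3 glutamine mutant, in which nearly all members fell, had an SSF2 value of -0.18 ± 0.31 (adjusted p = 0.728). This probe set may also bind SSF1 RNA, as its family-type name tells, and the second SSF2 probe set, with signals of 22.7 to 178, was near the floor and was called in no comparison. SSF1 was -1.36 in the H4 tail deletion (adjusted p = 0.00197) and -0.61 in the H3 glutamine mutant (adjusted p = 0.0719).

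RRP15 gave 1452, 2024 and 1247 in wild type, 1008 and 1095 in the RPD3 deletion strain, 641 and 984 in the H3 tail deletion strain and 759 and 859 in the H3 double mutant. It gave 345 and 408 in the H4 tail deletion, 466 and 888 in the H4 glutamine mutant, 702 and 1083 in the H4 double mutant and 22.7, 682 and 585 in the H3 glutamine mutant, whose first array is the one named above. Every mutant array lay below wild type. RRP15 was called in the H4 tail deletion (-2.04 ± 0.53, adjusted p = 0.0117) and the H3 glutamine mutant (-2.01 ± 0.47, adjusted p = 0.0079). Without the first H3 glutamine array the latter was -1.29 (adjusted p = 0.0142), and the H4 glutamine mutant was called as well, at -1.26 (adjusted p = 0.0112).

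The Noc proteins, MAK21 (Noc1), NOC2 and NOC3, travel in pairs with the particle from the nucleolus into the nucleoplasm. All 3 fell in the H4 tail deletion, the H3 glutamine mutant and the H3 double mutant. NOC2 gave 786, 975 and 393 in wild type, 396 and 495 in the RPD3 deletion strain, 220.3 and 459 in the H3 tail deletion strain and 273 and 328 in the H3 double mutant. It gave 337, 331 and 330.4 in the H3 glutamine mutant, 186 and 208 in the H4 tail deletion, 309 and 432 in the H4 glutamine mutant and 343 and 479 in the H4 double mutant. The H4 tail deletion was lowest, at -1.77 ± 0.36 (adjusted p = 0.00297), while the H4 glutamine mutant overlapped wild type and was not called (-0.87 ± 0.36, adjusted p = 0.0938). The 2 H4 mutants differed in NOC2 by -0.90 ± 0.40 (adjusted p = 0.236).

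NOC3, which also takes part in DNA replication licensing, was one of the 6 members that fell in the RPD3 deletion. Its signals were 758, 1038 and 587 in wild type, 454 and 408 in the RPD3 deletion strain, 489 and 607 in the H3 tail deletion strain and 481 and 383 in the H3 double mutant. They were 345, 415 and 370.1 in the H3 glutamine mutant, 364 and 488 in the H4 tail deletion, 259.6 and 364 in the H4 glutamine mutant and 338 and 340.2 in the H4 double mutant. Only the H3 tail deletion overlapped wild type. NOC3 changed by -0.84 ± 0.26 in the RPD3 deletion (adjusted p = 0.0395) and by -1.33 ± 0.26 in the H4 glutamine mutant (adjusted p = 0.00234).

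RPF2 and RRS1 bring the 5S RNA and its ribosomal proteins L5 and L11 to the particle. Both fell in the H4 mutants and in the H3 glutamine mutant. RRS1 signal was 2183, 3448 and 1964 in wild type, 2323 and 1742 in the RPD3 deletion strain, 1286 and 1342 in the H3 tail deletion strain and 1528 and 1535 in the H3 double mutant. It was 1215, 1409 and 1361 in the H3 glutamine mutant, 719 and 517 in the H4 tail deletion, 651 and 895 in the H4 glutamine mutant and 1639 and 1691 in the H4 double mutant. The H4 tail deletion and the H4 glutamine mutant lay below all other arrays. RRS1 was 4.03-fold lower than wild type in the H4 tail deletion (log2 -2.01 ± 0.24, adjusted p = 9.46e-05) and 1.87-fold lower in the H3 tail deletion (log2 -0.90 ± 0.24, adjusted p = 0.0224). The 2 tail deletions differed by -1.11 ± 0.26 (adjusted p = 0.0192).

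BRX1 and EBP2 bind each other and enter the particle together. Both fell in the H4 mutants and the H3 glutamine mutant. BRX1 gave 6339.5, 10272 and 6241 in wild type, 6215 and 6730.3 in the RPD3 deletion strain, 5798 and 4891 in the H3 tail deletion strain and 5595 and 4509 in the H3 double mutant. It gave 3722, 3638 and 3528 in the H3 glutamine mutant, 3352 and 2626 in the H4 tail deletion, 2904 and 2876 in the H4 glutamine mutant and 4633 and 5127 in the H4 double mutant. The H3 and H4 single mutants were below wild type on all arrays, and the RPD3 deletion overlapped it. BRX1 changed by -1.32 ± 0.20 in the H4 tail deletion and by -1.36 ± 0.20 in the H4 glutamine mutant (adjusted p = 0.000444 and 0.000641).

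NOP2 and SPB1 methylate 25S RNA. Both fell in the H4 mutants and the H3 glutamine mutant. SPB1, which marks a ribose in the catalytic centre, gave 1190.2, 1921 and 1239 in wild type, 847 and 951 in the RPD3 deletion strain, 801 and 1241 in the H3 tail deletion strain and 666 and 966 in the H3 double mutant. It gave 877, 780.2 and 795 in the H3 glutamine mutant, 506 and 552 in the H4 tail deletion, 453 and 571 in the H4 glutamine mutant and 741 and 793 in the H4 double mutant. Of these groups only the H3 tail deletion overlapped wild type. The largest SPB1 changes were -1.48 ± 0.25 in the H4 glutamine mutant (adjusted p = 0.00135) and -1.42 ± 0.25 in the H4 tail deletion (adjusted p = 0.00119).

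The nuclear remodelling enzymes are the GTPases NOG1, NOG2 and NUG1 and the very large ATPase REA1, which pulls on RSA4 and on YTM1 to release them. All 5 of NOG1, NOG2, NUG1, REA1 and RSA4 fell in both H4 mutants, and 4 in the H3 glutamine mutant. In the H4 double mutant 0 of the 5 were called, beside 12.9% of all probe sets. Their median there was -0.49, beside -0.71 for all members. On all arrays of that group 4 of the 5 lay below wild type, beside 25.2% of all probe sets. REA1 had the largest fall of the list in the RPD3 deletion. Its signals were 2338, 2516 and 1619 in wild type, 682 and 656 in the RPD3 deletion strain, 1062 and 1283 in the H3 tail deletion strain and 915, 1122 and 668 in the H3 glutamine mutant. They were 971 and 719 in the H4 tail deletion, 884 and 1065 in the H4 glutamine mutant, 684 and 1643 in the H3 double mutant and 1446 and 1382 in the H4 double mutant. The second H3 double mutant array alone reached the wild-type range, and that group's arrays were far apart. REA1 was 3.17-fold lower in the RPD3 deletion (log2 -1.66 ± 0.33, adjusted p = 0.00369), while its difference in the H4 double mutant was -0.58 ± 0.33 (adjusted p = 0.212). The 2 NOG2 probe sets gave -1.02 and -0.71 in the H4 tail deletion and -1.28 and -1.05 in the H4 glutamine mutant, all called. In the H3 tail deletion the first gave -0.70 (adjusted p = 0.0833) and the second -0.72, which was called (adjusted p = 0.0225).

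Export and the cytoplasmic steps use ARX1 and NMD3, which help the particle through the pore, TIF6, which keeps it from joining the small subunit too early, REI1 and LSG1, which release ARX1 and NMD3, the placeholders MRT4 and RLP24, and SDA1. All 8 fell in both H4 mutants and the H3 glutamine mutant. TIF6 gave 8878, 14369 and 7933 in wild type, 3742 and 6170.1 in the RPD3 deletion strain, 5055 and 6021 in the H3 tail deletion strain and 2516 and 4184 in the H3 double mutant. It gave 6269.8, 5108 and 5625 in the H3 glutamine mutant, 4278 and 5502 in the H4 tail deletion, 3494 and 3603 in the H4 glutamine mutant and 4304 and 3783 in the H4 double mutant. All 15 mutant arrays were below the lowest wild-type array. TIF6 fell in every group but the H3 tail deletion (-0.86 ± 0.28, adjusted p = 0.0559), by -1.06 in the RPD3 deletion (adjusted p = 0.02) and most in the H3 double mutant, at -1.63 ± 0.28 (adjusted p = 0.000954). LSG1, the GTPase that frees NMD3, gave 1109.7, 1765 and 1125 in wild type and 323 and 329 in the H4 tail deletion, a 4.00-fold fall (log2 -1.999 ± 0.23, adjusted p = 7.74e-05).

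The remaining RNA-binding and structural factors are NOP4, NOP16, LOC1, PUF6, CGR1, MAK11 and NSA2. All 7 fell in both H4 mutants and the H3 glutamine mutant. In the RPD3 deletion and the H3 tail deletion 0 of the 7 were called, beside 4.13% and 2.98% of all probe sets. Their median in the H3 tail deletion was nonetheless -0.65, beside -0.55 for all members. There 4 of the 7 were lower at an unadjusted p under 0.05, beside 8.76% of all probe sets. CGR1, a small protein needed for 25S and 5.8S processing, had the largest log2 fall of the list against wild type. Its signals were 1479.7, 2988 and 1299 in wild type, 970.3 and 1309.7 in the RPD3 deletion strain, 767 and 1148 in the H3 tail deletion strain and 441 and 559 in the H3 double mutant. They were 693, 579 and 626 in the H3 glutamine mutant, 431 and 360.3 in the H4 tail deletion, 233 and 490.0 in the H4 glutamine mutant and 548 and 519 in the H4 double mutant. All mutant arrays but the second of the RPD3 deletion lay below wild type, with more than the usual spread in the H4 glutamine mutant. CGR1 was 5.3-fold lower in that group (log2 -2.41 ± 0.36, adjusted p = 0.000671), 4.54-fold lower in the H4 tail deletion (adjusted p = 0.000739) and 3.61-fold lower in the H3 double mutant (adjusted p = 0.00228).

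LOC1, which also helps to localise ASH1 mRNA in the daughter cell, gave 3116, 6706 and 4030.3 in wild type, 3277 and 4121 in the RPD3 deletion strain, 2707 and 2891 in the H3 tail deletion strain and 1938 and 1361 in the H3 double mutant. It gave 2453, 2077 and 2280.3 in the H3 glutamine mutant, 1783 and 1799.9 in the H4 tail deletion, 1038 and 1244 in the H4 glutamine mutant and 1273 and 1375 in the H4 double mutant. The RPD3 deletion alone overlapped wild type. LOC1 changed by -1.95 ± 0.26 in the H4 glutamine mutant (adjusted p = 0.000282) and by -1.73 ± 0.26 in the H4 double mutant (adjusted p = 0.000614), and those 2 groups differed by 0.22 ± 0.28 (adjusted p = 0.77).

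**Figure D3:**
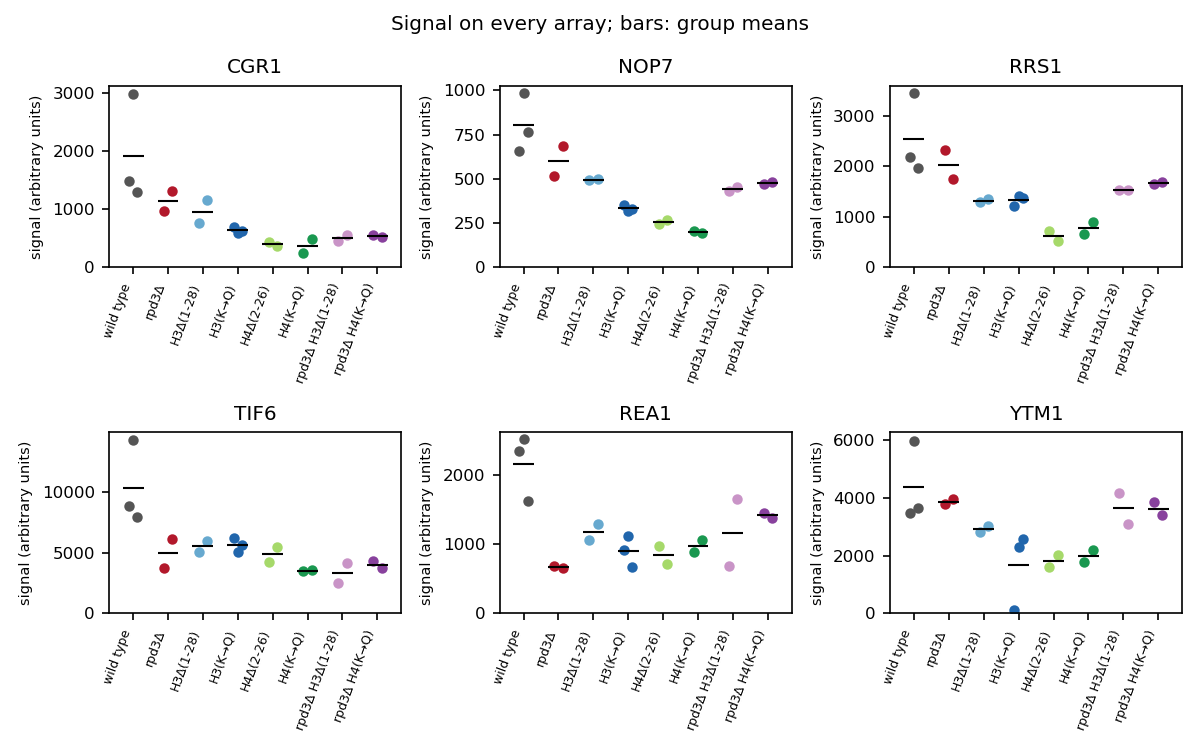
Signal in arbitrary units (y axis, from 0) of CGR1, NOP7, RRS1, TIF6, REA1 and YTM1 on every array of the 8 groups (x axis); points are arrays and bars are group means. NOP7 lies at 206 and 190.4 in the H4 glutamine mutant and at 468 and 482 in its double mutant, and 1 YTM1 point of the H3 glutamine mutant lies at 111.

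The 2 histone tails were then set against each other. The H4 tail deletion was lower than the H3 tail deletion in all 57 members, beside 59.8% of all probe sets, with a median log2 difference of -0.82, and 25 members were called lower, beside 7.78% of all probe sets, and 0 higher, beside 2.62%. The median of all probe sets was -0.12. The 5 largest called differences were in MAK5 (-1.63 ± 0.37, limma adjusted p = 0.0165), SSF2 (-1.61 ± 0.38, with both H4 tail deletion arrays under the floor, adjusted p = 0.0187), LSG1 (-1.41 ± 0.25, adjusted p = 0.00519), MAK11 (-1.36 ± 0.32, adjusted p = 0.0184) and NOP8 (-1.20 ± 0.28, adjusted p = 0.0183). MAK5 showed it plainly, with 1443 and 1447 in the H3 tail deletion strain and 549 and 398 in the H4 tail deletion, against 1351, 2403 and 910.5 in wild type. Of the 25, 22 were not called in the H3 tail deletion against wild type, beside 45 of all 57 members. The same H3 tail deletion arrays enter both comparisons, which favours that outcome. The smallest differences between the 2 tail deletions were in RLP7 (-0.06), RLP24 (-0.11) and TIF6 (-0.19). The first arrays of both groups came from day A, and there the median difference was -0.75 with 55 members lower, beside 51.1% of all probe sets. Without the 3 arrays whose headers name another strain, which leaves 1 array in each of these groups, 0 members were called. Leaving out single arrays gave 14 and 0 (first and second H3 tail deletion array) and 6 and 3 (first and second H4 tail deletion array).

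Deleting a tail and substituting its lysines were not separated for any member in the fit of all arrays. For H4 the median difference was 0.04, with 0 members called, 3 lower and 2 higher at an unadjusted p under 0.05, beside 7.23% and 11.7% of all probe sets. This median had no settled sign, lying between -0.44 (with the chip lot or the period as a block) and 0.09 over the alternatives, below 0 in 7 of 17. The interval of the members' differences, by quartiles, ran from -0.30 to 0.22. NOC2 and DBP3 lay at the 2 ends of that list. NOC2 was lower in the tail deletion, by -0.90 ± 0.40 (adjusted p = 0.236). DBP3 gave 2688 and 2011 in the H4 tail deletion and 1237 and 1403 in the H4 glutamine mutant, a log2 difference of 0.82 ± 0.23 (adjusted p = 0.0523). For H3 the tail deletion was higher than the glutamine mutant by a median of 0.40, with 0 members called, 17 higher and 1 lower at an unadjusted p under 0.05, beside 14.2% and 4.97% of all probe sets, whose median was 0.14. The members' median for H3 was 0.19 with median centring, 0.02 with the chip lot as a block and -0.03 with the period as a block. Over all probe sets 1.82% were called lower at an adjusted p under 0.05 and 3.63% higher for H4, and 0.0382% and 0.357% for H3. No sampling day held both groups of either comparison.

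Loss of RPD3 went with different changes in different histone backgrounds. In cells with wild-type histones the median member stood at -0.33, and 6 fell, beside 4.13% of all probe sets called lower. Leaving out single arrays moved this count to between 1 and 9. The 6 were REA1 (-1.66), TIF6 (-1.06), NOC3 (-0.84), LSG1 (-0.74), SPB4 (-0.62) and ERB1 (-0.60). Those 6 play different parts, an ATPase, a joining inhibitor, a Noc protein, a cytoplasmic GTPase, a helicase and a PeBoW scaffold. In cells without the H3 tail, deleting RPD3 as well gave a median of -0.14 and 0 members called, beside 0.267% of all probe sets called lower and 1.07% higher. At an unadjusted p under 0.05, 5 members were lower and 0 higher, beside 5.85% and 7.54% of all probe sets. In cells with the H4 glutamine substitutions the sign was opposite. There the double mutant was higher than the single mutant by a median of 0.64, and 11 members rose, beside 2.17% of all probe sets called higher and 1.25% called lower. The median of all probe sets was 0.07. On the level of arrays, 48 members were higher on both double mutant arrays than on both single mutant arrays, beside 33.7% of all probe sets, and 0 were lower on both, beside 20.4%. All 4 arrays came from day E. Leaving out any 1 of these 4 arrays brought the number that rose to 1 or 2, and leaving out the first H3 glutamine array, which enters only the pooled spread, brought it to 7.

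The largest rise was in NOP8 of the Npa1 complex. NOP8 gave 863, 1541 and 1009 in wild type, 376 and 266 in the H4 glutamine mutant and 1169 and 1063 in the H4 double mutant. The double mutant was back in the wild-type range. The rise was 3.53-fold (log2 1.82 ± 0.28, adjusted p = 0.00453), and the difference from wild type was then 0.02 ± 0.26 (adjusted p = 0.996). NOP7 rose 2.4-fold (log2 1.26 ± 0.22, adjusted p = 0.0088) but remained below wild type (-0.74 ± 0.20, adjusted p = 0.0175). RSA4, the partner of REA1, gave 991, 1758 and 917 in wild type, 691 and 616 in the H4 glutamine mutant and 1569 and 1374 in the H4 double mutant, a rise of 1.17 ± 0.28 (adjusted p = 0.0367). ERB1, the PeBoW scaffold, gave 9526, 12264 and 8734, 4756 and 5776 and 9648 and 8279 in the same groups, a rise of 0.77 ± 0.18 (adjusted p = 0.037). The ERB1 arrays of the double mutant lay within the wild-type range or just below it.

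The other 7 that rose were RRS1 (1.12), RRP1 (1.11), DBP3 (1.10), NUG1 (1.05), ARX1 (1.00), EBP2 (0.98) and DBP10 (0.82), with adjusted p between 0.0113 and 0.0427. They come from 6 of the 12 role groups described above, from the loader of the 5S particle to the export factor. Of the 11, 10 were no longer called lower than wild type in the double mutant, NOP7 being the exception. Of all 57 members, 30 were not called there. The 11 were picked for high values on the same double mutant arrays, which favours that outcome. At the other end, RLP7 (-0.07), SPB4 (-0.08), URB1 (0.13) and NOC3 (0.14) were nearest to 0. SPB4 gave 619 and 1039 in the H4 glutamine mutant and 810.0 and 712 in the double mutant.

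An interaction was tested for each member to compare RPD3 loss in the 2 histone backgrounds. It is the log2 change in the H4 glutamine background minus that with wild-type histones. It was positive for all 57 members, beside 51.2% of all probe sets, with a median of 0.98 beside 0.02 for all probe sets, and 11 members were called, beside 0.968% of all probe sets called in that direction. They were REA1 (2.21 ± 0.48, adjusted p = 0.0265), NOP7 (1.67 ± 0.30, adjusted p = 0.00969), NOG1, NOP8, ARX1, RRS1, ERB1, DBP3, DBP10, NUG1 and NOP2. Of these, 8 also rose in the double mutant over the H4 glutamine mutant, a comparison that is itself a part of the interaction, so the overlap is partly built in. For REA1 the value is made mainly by its fall with wild-type histones, since its difference in the H4 background was 0.54 ± 0.36 (adjusted p = 0.468). Related gene lists, given below, had positive medians as well. The interaction count rested on single arrays, with 1 or 2 called without an array of the H4 double mutant, 2 or 4 without one of the H4 glutamine mutant, 6 or 2 without one of the RPD3 deletion, and 6 without the second wild-type array or without the first H3 glutamine array. For the H3 tail deletion the interaction had a median of 0.19 and 0 members called, beside 1.26% of all probe sets called higher and 3.92% called lower. At an unadjusted p under 0.05, 5 members were higher, beside 8.08% of all probe sets, and 1 member was called without the first RPD3 deletion array or the first H3 double mutant array.

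**Figure D4:**
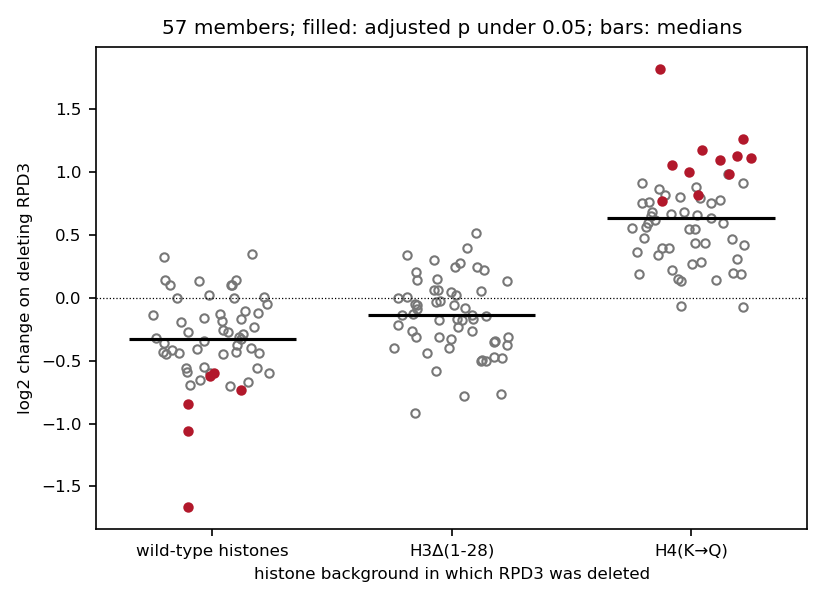
Log2 change on deleting RPD3 (y axis) for each of the 57 members in 3 histone backgrounds (x axis); filled points have an adjusted p under 0.05 and bars are medians. The medians are -0.33 with wild-type histones, -0.14 without the H3 tail and 0.64 with the H4 glutamine substitutions.

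Genes of neighbouring steps were also lower in the H4 mutants and the H3 glutamine mutant, those of RNA polymerase I by less than the members. In the H4 tail deletion, 23 of 27 other large-subunit factors, 40 of 42 genes of the small-subunit processome, which builds the other subunit, and 8 of 15 RNA polymerase I genes fell, with medians of -1.29, -1.21 and -0.82. In the H4 glutamine mutant the counts were 25, 37 and 9, with medians of -1.25, -1.15 and -0.87, and in the H3 glutamine mutant 21, 37 and 9, with medians of -0.93, -0.95 and -0.80. Genes for the ribosomal proteins of the large subunit, named with an RPL symbol, had medians nearer to 0 in these groups. Of 42 measured, 7 fell in the H4 tail deletion (median -0.26), 2 in the H4 glutamine mutant (-0.00) and 1 in the H3 glutamine mutant (-0.12). Of all probe sets, 15.1%, 16.5% and 13.7% were called lower in these groups. In the RPD3 deletion, the H3 tail deletion and the H3 double mutant 0, 3 and 6 RPL genes fell, with medians of -0.20, -0.36 and -0.31, beside -0.33, -0.55 and -0.74 for the assembly genes. The shares of all probe sets called lower there were 4.13%, 2.98% and 8.13%. In the H4 double mutant 0 RPL genes fell, with a median of 0.20, beside 27 of 57 assembly genes with a median of -0.71 and 12.9% of all probe sets. The RPD3 by H4 interaction was also positive by median in these lists. Medians were 0.92 in the processome (7 called), 0.75 in other large-subunit factors (3), 0.62 in RNA polymerase I genes (2) and 0.47 in RPL genes (0). The members had 0.98, with 11 called. From the H4 glutamine mutant to its double mutant these lists rose by medians of 0.64, 0.71, 0.35 and 0.26, beside 0.64 for the members. Many RPL genes exist as near-identical pairs, whose probe sets may bind the RNA of both copies. The differences between lists were not tested.

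**Figure D5:**
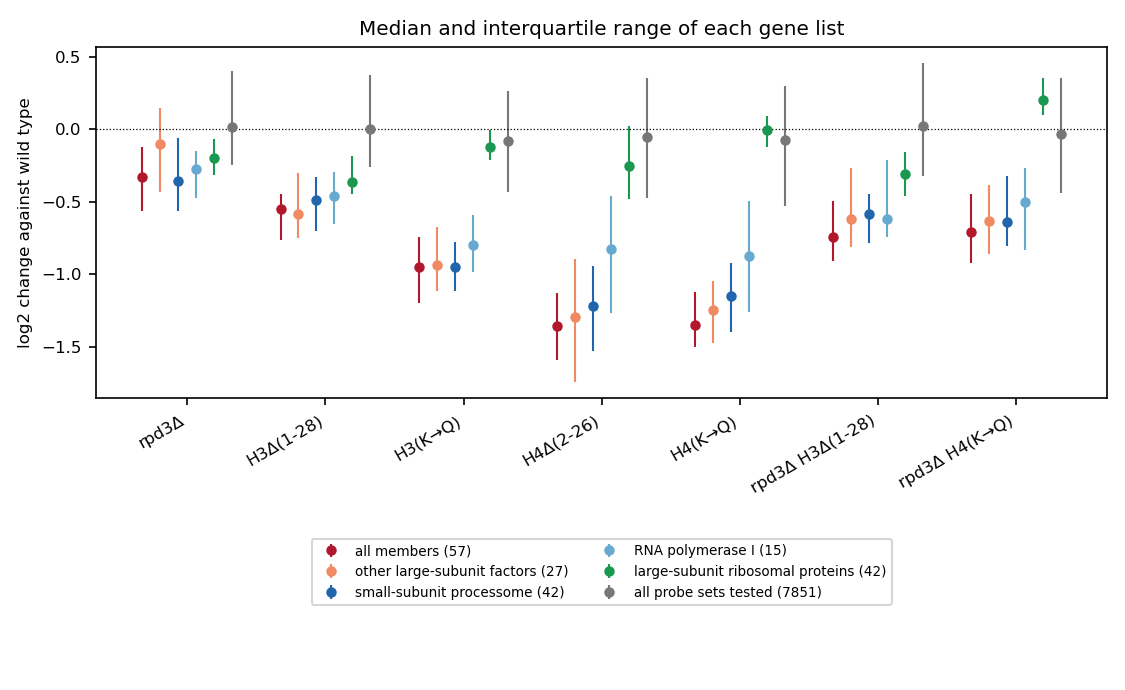
Median log2 change against wild type (points) and interquartile range (bars) of the 57 members, of 4 other gene lists and of all 7851 probe sets tested, in the 7 mutant groups (x axis). In the H4 tail deletion the members' median is -1.36, that of the small-subunit processome -1.21 and that of the large-subunit ribosomal proteins -0.26.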

How the data were processed

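The deposited table holds 1 intensity per probe set and array on a linear scale. The authors had scaled the arrays, as the values show, to a common 2% trimmed mean, and the sources used here name no software for summarising the probes. The array run settings hold values other than measurements, chip lot and description per the file headers, and sampling days came from the labels. Of 9335 probe sets, 60 controls were left out. Signals were rescaled to the common 2% trimmed mean, set to at least the pooled 25th percentile (140.2) and tested where they exceeded it on at least 2 arrays, which left 7851 probe sets. Probe sets with 1 gene symbol (6504) were read as genes, and all 57 members matched the R64 gene table by identifier. A gene with several probe sets was read from the one with the highest mean log2 signal.

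Log2 signals of all 18 arrays entered 1 fit in limma 3.58.1 (R 4.3.3), 1 coefficient for each group. Variances were moderated with an intensity trend, on 10 residual and 3.76 prior degrees of freedom. P-values were two-sided and adjusted by Benjamini-Hochberg within each of 14 comparisons. Both arrays of the H4 glutamine mutant and of its double mutant share day E, so the pooled spread misses some of the day-to-day variation. The members and all gene lists were chosen with earlier results of these data known. The genes given array by array were those with the largest mean change in each of 12 role groups, the 3 largest called falls per comparison with wild type and any member called in none; other members are named as examples, chosen after their values were seen. Alternatives changed the scaling, floor, filter, variance model, arrays in the fit, the block (day, period, chip lot or replicate number) and an actin covariate, and left out single arrays.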

Additional observations from a re-analysis of the deposited data

Results flagged for a closer look

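The effect of deleting RPD3 was called different between cells with the H4 glutamine substitutions and cells with wild-type histones in 11 of 57 members. The calls came from limma's test of the difference itself (Benjamini-Hochberg adjusted p under 0.05). Of all probe sets, 0.968% were called with a positive difference and 2.19% with a negative one. The differences, as log2 change in the H4 glutamine background minus log2 change with wild-type histones, were 2.21 in REA1, 1.67 in NOP7, 1.60 in NOG1, 1.495 in NOP8, 1.43 in ARX1, 1.41 in RRS1, 1.37 in ERB1, 1.26 in DBP3, 1.18 in DBP10, 1.05 in NUG1 and 0.98 in NOP2. All 11 were positive, as was the value of every other member, beside 51.2% of all probe sets. Every one of the 42 genes of the small-subunit processome was positive too, with 7 called. Of the 11, 8 also rose in the H4 double mutant over the H4 glutamine mutant. That comparison, within day E, is itself a part of the difference tested and uses the same arrays. The overlap is thus partly built in and adds no separate evidence. The RPD3 deletion came from days A and B and both H4 groups from day E. With the day as a block 1 member was called, with the chip lot as a block 5, and with the sampling period as a block 12.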

How the results depend on the processing

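The median change of the members against wild type was below 0 in all 7 comparisons under every alternative run. Under the alternatives, the members that the text gives array by array had 1420 values where they were called lower, of which 1420 were again below 0, 1122 were called lower and 298 were not called. Counts of members called, in the order RPD3 deletion, H3 tail deletion, H3 glutamine mutant, H4 tail deletion, H4 glutamine mutant, H3 double mutant and H4 double mutant, were 6, 12, 53, 55, 53, 25 and 27 as reported. Leaving out 1 array at a time gave 1 to 9, 1 to 19, 31 to 52, 45 to 56, 41 to 55, 10 to 39 and 6 to 36. Fitted with only the groups compared, they were 0, 0, 18, 5, 0, 1 and 2. In that fit 0 of all probe sets were called in the H4 glutamine mutant, beside 1974 as reported.

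With the day as a block the counts were 0 in the RPD3 deletion, 1 in the H3 tail deletion, 12 in the H4 tail deletion and 7 in the H3 double mutant, and the 3 other groups shared no day with wild type directly or through another group and could not be fitted. The period block gave 19 (H3 tail deletion), 5 (H3 glutamine mutant), 30 (H4 glutamine mutant), 39 (H3 double mutant) and 3 (H4 double mutant), and the chip lot block 1, 3 and 1 in the H3 glutamine, H4 glutamine and H4 double mutants. Those blocks set the later groups against the third wild-type array, and the lot block left out the first H4 tail deletion array, which has no lot. Under the lot block YTM1 was called higher, at 3.24 (limma adjusted p = 0.0072) in the H4 glutamine mutant and 4.10 (adjusted p = 0.00158) in the H4 double mutant. The first H3 glutamine array, low in YTM1, shares its lot with both of these groups. Median centring gave 10, 23 and 41 in the RPD3 deletion, H3 tail deletion and H3 double mutant, quantile normalization 10 and 19 in the first 2, and the actin covariate 1, 5 and 14. Without the 3 arrays with discordant headers these 3 counts were 3, 2 and 9.

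The H4 double mutant against the H4 glutamine mutant had 11 called, 1 to 7 without 1 array, 20 with the day block, 4 with median centring and 0 with only those groups. The RPD3 by H4 interaction had 11, 1 to 13 without 1 array, 1 with the day block, 5 with the lot block, 3 with the actin covariate, 7 with the floor at the 10th percentile, 1 with only those groups and 6 without the arrays with discordant headers. The H4 against the H3 tail deletion had 25, 0 to 20 without 1 array, 6 with the day block, 3 with the lot block, 9 with median centring, and 0 with only those groups or without the arrays with discordant headers. The H4 tail deletion against the H4 glutamine mutant had 0, and 1 with the lot block, with quantile normalization or without the arrays with discordant headers. The RPD3 by H3 interaction had 0, and 0 to 1 without 1 array. All probe sets called went down as well over the alternatives. The lowest was 28, beside 268 as reported, for the H4 double mutant against the H4 glutamine mutant. It was 50, beside 248, for the RPD3 by H4 interaction.

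Deviations from group means correlated at -0.30 to 0.38 (median 0.03) between arrays of the same replicate number and at -0.47 to 0.47 between others. In a group of 2 arrays the deviations are mirror images. Many values between different numbers thus repeat the first ones with the sign changed, and the ranges cannot settle whether the numbers pair the arrays. The replicate block gave 7 members for the RPD3 by H4 interaction and 1 for the RPD3 by H3 interaction, and moved no other count of members by over 1.5 times. With 2 or 3 arrays a group, small differences could not be called at this number of arrays.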
